A study of Mus musculus with 16 samples.

Results

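The proteasome is the protease complex that destroys proteins tagged with ubiquitin, and the 34 genes described here carry the symbols of its constitutive subunits in the mouse, 3 of them assembly chaperones: 7 alpha ring genes (Psma1 to Psma7), 7 beta ring genes (Psmb1 to Psmb7), 6 ATPases (Psmc1 to Psmc6) and 14 non-ATPase genes (Psmd1 to Psmd14). They were chosen by these gene symbols and by no measured value, from a table of 40879 symbols. All 34 had enough counts to be tested, among 14665 tested genes. Kidney RNA was sequenced from the 3′ end of transcripts in 16 libraries of male wild-type C57BL/6 mice. The Old + PM group (3 libraries) received Palmijihwang-tang and the Old + YM group (3 libraries) Yukmijihwang-tang. Both are herbal formulas, dosed orally at 100 mg/kg/day, 5 days weekly, between 19 and 24 months of age. One passage of the design text names YM for the PM dose as well, and the group name was followed. The Old group (5 libraries) aged without a formula, and no source used here gives its age when sampled. A 5-month acclimatization applied to all 3 aged groups. The Young group (5 libraries) was 3 months old and was obtained as a separate set of mice. No allele or transgene is named for any group. The labels do not tie each library to its own mouse, so p-values measure the spread between libraries.

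In the proteasome, 4 stacked rings of alpha and beta subunits form a barrel, the core particle, with the cutting sites inside. A regulatory particle caps the barrel: its non-ATPase subunits bind ubiquitin chains and remove them, and its ATPase ring unfolds the substrate and threads it into the barrel. Subunits are needed in fixed proportions, and their genes are known to be induced together by the transcription factor Nfe2l1, and in part by Nfe2l2, through antioxidant response elements in their promoters. In kidney the complex serves the general protein turnover of tubule cells.

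Promoter stretches are shown because the 2 catalytic genes that could be searched, Psmb5 and Psmb6, carry the antioxidant response core close to the gene start. The other catalytic gene, Psmb7, had no promoter window. RefSeq promoter windows of build GRCm38.p6, from 250 bases before to 50 bases after the start, were matched by symbol for 28 members, which leave out Psmb1, Psmb2, Psmb7, Psmc3, Psmd3 and Psmd7. The core TGACNNNGC was searched on both strands and was in 5 of 30 windows (16.7%), against 12.4% of 32851 windows of all genes. It starts at position -47 from the RefSeq start in Psmb5, -9 in Psmb6, -227 in Psmc6, -247 in Psmd12 and, not shown, in the window of Psmd9. The stretches below run 5′ to 3′ along the gene's strand, which is minus for Psmb5 and plus for the others, and capitals mark the core, which lies on the opposite strand in Psmc6 and Psmd12.
Psmb5, chr14:54618023-54618067: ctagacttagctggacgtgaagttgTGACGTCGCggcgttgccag
Psmb6, chr11:70525323-70525356: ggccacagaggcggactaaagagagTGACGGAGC
Psmc6, chr14:45329574-45329630: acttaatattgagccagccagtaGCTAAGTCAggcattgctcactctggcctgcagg
Psmd12, chr11:107479278-107479314: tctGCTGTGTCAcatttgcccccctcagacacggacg
The CCAAT box was in 11 of 30 windows (36.7%), against 37.4% of all windows. The ETS core CCGGAAGT was in 7 of 30 windows (23.3%), those of Psma6, Psmc1, Psmc2 (2 windows), Psmd6, Psmd12 and Psmd13, against 3.89% of all windows. Neither of these 2 motifs contains the other or the antioxidant core. A match describes letters only. Of the 5 genes with the antioxidant core, Psmb5, Psmb6 and Psmc6 fell in Old and Psmd9 and Psmd12 did not pass the test. Of all 34 members 17 fell, and of all tested genes 7.13%. Whether the core goes with the fall was not tested.

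Totals ran from 8223008 to 10914515 counts per library, and the lowest single count of any member was 56, for Psma5 in Old 4. Levels are in CPM (the counts-per-million unit) on scaled library sizes and are not divided by length, so they are compared between libraries and not between genes. Markers of proximal tubule, the main kidney epithelium, were all detected and summed to 9363 to 12904 CPM in Old and 12295 to 13927 CPM in Young. In bulk RNA, fewer cells of a type and less RNA per cell cannot be told apart. Libraries Old 4, Old + PM 3 and Young 5 stood apart from their groups, and results are given with and without them. A clock score (the mean standardised level of 10 genes such as Dbp and Per2 minus that of 4 opposite-phase genes such as Bmal1) was -1.71 in Old 4, 1.58 to 2.28 in the other Old libraries and -2.83 to -1.21 in Young. No source used here gives the time of collection.

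Proteasome subunit transcripts were lower in Old than in Young kidneys, in both the core and the regulatory particle. Of the 34 members, 17 fell and none rose at an adjusted p of 0.05 (edgeR quasi-likelihood test, two-sided, Benjamini-Hochberg over 14665 genes). Among all tested genes 7.13% fell and 6.47% rose. The median log2 fold change of the members was -0.36 (range -0.67 to 0.10), beside 0.02 over all genes tested, and 32 of 34 members were negative. At an unadjusted p of 0.05, 25 members were lower, against 14.1% of all genes. In 7 members every Old library lay under every Young library, against 4.97% of all genes.

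Summed over the 14 core genes, the 5 Old libraries held 1825, 1982, 1871, 2049 and 1733 CPM and the 5 Young libraries 2396, 2279, 2251, 2460.2 and 2110.4 CPM. These sums did not overlap. Summed over the 20 regulatory genes, the chaperones Psmd5, Psmd9 and Psmd10 included, Old libraries held 2409.9, 2464, 2368, 3029 and 2215 CPM and Young libraries 3491, 3479, 3249.6, 3553 and 2908 CPM. Here Old 4 was above Young 5, and the other 4 Old libraries were under all Young ones. The treated groups held 1966 to 2103 CPM of core genes in Old + PM and 1728 to 1821 CPM in Old + YM, all under the lowest Young library. The plot of summed counts shows both particles.

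**Figure D1:**
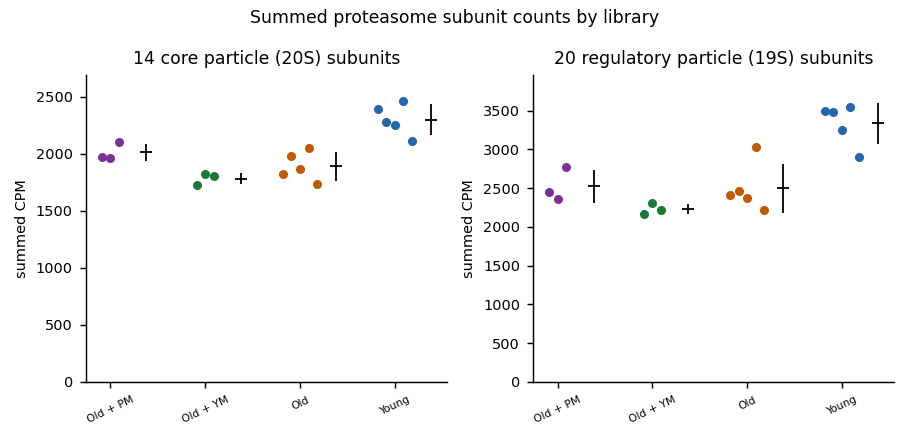
Summed CPM of the 14 core particle genes (left) and the 20 regulatory particle genes, 3 assembly chaperones among them (right), in each library of the 4 groups. Points are libraries, and the bar to their right is the mean with 1 SD. Core sums of Old (1733 to 2049 CPM) lie under those of Young (2110 to 2460 CPM), and for the regulatory genes Old 4 (3029 CPM) lies above Young 5 (2908 CPM).

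The catalytic beta subunits are Psmb5, which cuts after hydrophobic residues, Psmb6, which cuts after acidic residues, and Psmb7, which cuts after basic residues. The gene of Psmb5 lies on chromosome 14 (54614119 to 54618022, minus strand), that of Psmb6 on chromosome 11 (70525367 to 70527858, plus strand) and that of Psmb7 on chromosome 2 (38588036 to 38644087, minus strand), in GENCODE M21 on GRCm38. Psmb5 had 25.6, 27.5, 30.1, 24.8 and 19.8 CPM in Old libraries, against 28.3, 38.7, 42.3, 42.0 and 39.4 CPM in Young libraries. Young 1 was the only Young library within the Old range. The log2 fold change was -0.58 (SE 0.13, edgeR adjusted p = 0.00544), from 25.6 ± 3.83 CPM in Old and 38.1 ± 5.72 CPM in Young (SD, n = 5 each). Psmb6 had 145, 155, 143, 184 and 126 CPM in Old, against 226, 204, 184, 207 and 154 CPM in Young. Old 4 and Young 5 made the groups overlap, and the log2 fold change was -0.37 (SE 0.11, edgeR adjusted p = 0.0306). Psmb7 had 64.8, 50.9, 66.4, 40.1 and 57.9 CPM in Old, against 60.2, 66.1, 80.9, 85.2 and 111 CPM in Young. Its groups also overlapped, and its log2 fold change of -0.53 (SE 0.17, edgeR adjusted p = 0.0514) did not pass. The transcript end of Psmb7 overlaps Nek6 on the other strand over 405 bases, and the strand setting of the counting is not given, so reads of the pair may be mixed. Psmb5 has processed pseudogenes (Gm3375 and Psmb5-ps) at least 95% identical to its transcript end, so its count is uncertain to that extent.

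Among the structural beta subunits, Psmb1 was called lower. It had 158, 181, 159, 200.3 and 150.3 CPM in Old, against 270.3, 247, 211, 247 and 210.1 CPM in Young, with no overlap. Its log2 fold change was -0.48 (SE 0.10, edgeR adjusted p = 0.00426). Psmb4, the member with the highest mean CPM, had 374, 434, 394, 413 and 346 CPM in Old, against 480.0, 445, 463, 518 and 398 CPM in Young. The groups overlapped and the log2 fold change of -0.23 (SE 0.10, edgeR adjusted p = 0.111) did not pass. Psmb3, which shares nearly identical sequence with 4 pseudogenes, stood at -0.34 (edgeR adjusted p = 0.137). Psmb2 stood at 0.10 (95% interval -0.36 to 0.57), and its interval spans 0.

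The alpha ring gates the entrance of the barrel, and 2 of its 7 genes fell. Psma7 had 239, 239.6, 246, 296 and 259.6 CPM in Old, against 363, 330.2, 312, 369.8 and 313 CPM in Young. Every Old library was under every Young one, and the log2 fold change was -0.40 (SE 0.09, edgeR adjusted p = 0.00577). Psma4 had 104, 118, 123, 139 and 108 CPM in Old, against 159, 174, 137, 166 and 146 CPM in Young. The groups touched through Old 4 and Young 3, and the log2 fold change was -0.40 (SE 0.11, edgeR adjusted p = 0.0229). Psma6 missed the threshold at -0.34 (edgeR adjusted p = 0.0747). Psma1, Psma2, Psma3 and Psma5 lay between -0.03 and 0.07. Psma5, the member with the lowest mean CPM, had 21.1, 14.4, 21.4, 5.46 and 17.0 CPM in Old, against 6.41, 13.4, 18.3, 14.99 and 22.9 CPM in Young. Psma5 has processed pseudogenes (Gm12989 and Gm8394) at least 95% identical to parts of its transcript end, so its count is uncertain to that extent. The libraries of each group spread widely, and the 95% interval of its log2 fold change was -0.60 to 0.73. The interval of Psma2 was -0.19 to 0.16, which is narrower and leaves out the median change of the members. The median over the 7 alpha genes was -0.03, against -0.37 for the beta ring, -0.40 for the ATPases and -0.35 for the non-ATPase genes. These medians were not tested against each other.

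**Figure D2:**
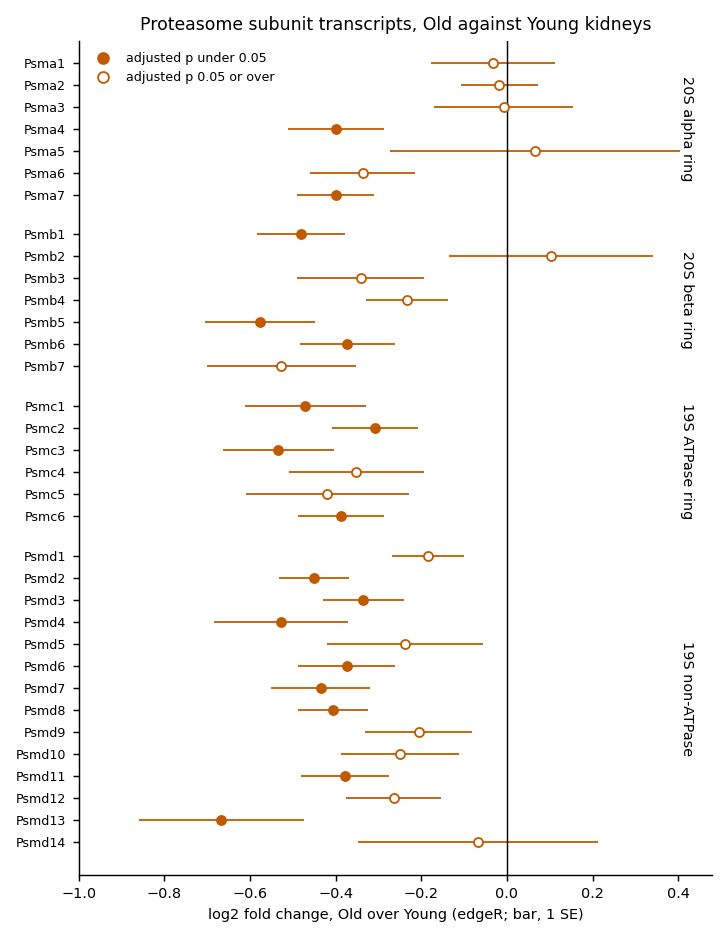
log2 fold change of each of the 34 members in Old over Young kidneys, by class, with 1 SE from the edgeR fit. Filled points passed an adjusted p of 0.05, and all 17 of them lie left of 0, with 2 in the alpha ring, 3 in the beta ring, 4 in the ATPase ring and 8 among the non-ATPase genes.

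The ATPases form the ring that unfolds substrates, and 4 of the 6 fell. Psmc3 had 230.1, 241, 259, 355 and 219 CPM in Old, against 395, 408, 358, 418 and 308 CPM in Young. Old 4 alone reached into the Young range, and the log2 fold change was -0.53 (SE 0.13, edgeR adjusted p = 0.0091). The end of Psmc3 overlaps Slc39a13 on the other strand over 215 bases, and its count carries the same doubt as that of Psmb7. Psmc6 had 73.7, 79.0, 66.4, 74.2 and 59.9 CPM in Old, against 96.4, 81.9, 90.9, 93.5 and 99.5 CPM in Young. There was no overlap, and the log2 fold change was -0.39 (SE 0.10, edgeR adjusted p = 0.0138). Psmc1 had 259.9, 253, 238, 391 and 243 CPM in Old, against 443, 426, 366, 407 and 275 CPM in Young. Old 4 lay far above its group and Young 5 far under its own, and the log2 fold change was -0.47 (SE 0.14, edgeR adjusted p = 0.0316). Psmc2 had 113, 102, 111, 90.3 and 92.4 CPM in Old, against 109.6, 119.9, 136, 128 and 136 CPM in Young. Only Old 1 and Old 3 reached the lowest Young library. Its log2 fold change of -0.31 (SE 0.10, edgeR adjusted p = 0.0478) was the nearest to the threshold among the members that passed. Psmc4 (-0.35) and Psmc5 (-0.42) did not pass.

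The non-ATPase genes include the scaffolds, ubiquitin receptors and deubiquitinase of the regulatory particle, and 8 of 14 fell. Psmd2, the large scaffold that docks ubiquitin shuttle proteins, had the smallest p of all members. Its gene lies on chromosome 16 (20651652 to 20663414, plus strand, GRCm38, GENCODE M21). It had 139, 141, 136, 147 and 128 CPM in Old, against 184, 184, 191, 193 and 193 CPM in Young. No libraries overlapped, and the log2 fold change was -0.45 (SE 0.08, edgeR adjusted p = 0.00129), from 138 ± 7.22 CPM in Old and 189 ± 4.66 CPM in Young (SD, n = 5 each). The count table does not list Gm5422, a near copy of its transcript end. Psmd8, a lid subunit, had 163, 175, 156, 159 and 154 CPM in Old, against 209, 194, 209.6, 234 and 224 CPM in Young. It too did not overlap, and its log2 fold change was -0.41 (SE 0.08, edgeR adjusted p = 0.00285).

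Psmd3, another lid scaffold, had 182, 180.2, 169, 192 and 140.4 CPM in Old, against 219, 207, 203, 238 and 222 CPM in Young. No libraries overlapped, and the log2 fold change was -0.34 (SE 0.09, edgeR adjusted p = 0.0227). Psmd11, a lid subunit that contacts both the ATPase ring and the core, had 76.0, 62.1, 62.7, 61.2 and 69.6 CPM in Old, against 80.9, 78.2, 96.0, 80.8 and 94.9 CPM in Young. It did not overlap either, at -0.38 (SE 0.10, edgeR adjusted p = 0.0186). Psmd7, the inactive partner of the deubiquitinase, had 131, 132, 123, 179 and 142 CPM in Old, against 205, 213, 193, 205 and 139.7 CPM in Young. Young 5 lay far under the other Young libraries, and the log2 fold change was -0.43 (SE 0.12, edgeR adjusted p = 0.0167). Psmd13, a lid subunit, had 171, 187, 164, 296 and 169 CPM in Old, against 345, 365, 277, 373 and 207 CPM in Young. Old 4 lay above Young 3 and Young 5, which was the only overlap, and the log2 fold change of -0.67 (SE 0.19, edgeR adjusted p = 0.03) was the most negative of the 34.

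Psmd4, the ubiquitin receptor of the regulatory particle, had 187, 173, 169, 288 and 172 CPM in Old, against 330.0, 318, 277, 305 and 198 CPM in Young. Old 4 again lay above Young 3 and Young 5, and the log2 fold change was -0.53 (SE 0.16, edgeR adjusted p = 0.0306). Psmd6, a lid subunit, also fell, at -0.37 (SE 0.11, edgeR adjusted p = 0.0319). Psmd14, the deubiquitinase that removes the chain, had 64.1, 56.5, 71.4, 23.4 and 54.8 CPM in Old, against 42.7, 38.2, 62.3, 56.2 and 84.3 CPM in Young. The groups overlapped throughout, and the log2 fold change was -0.07 (SE 0.28, edgeR adjusted p = 0.909) with a 95% interval of -0.62 to 0.48. Psmd1 and Psmd12, both scaffolds, stood at -0.18 and -0.26 and did not pass. Psmd5, Psmd9 and Psmd10, which are assembly chaperones rather than parts of the finished particle, stood at -0.24, -0.21 and -0.25 and did not pass either. Reads of Psmd1 may also belong to Gm21972, which overlaps it on the same strand.

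**Figure D3:**
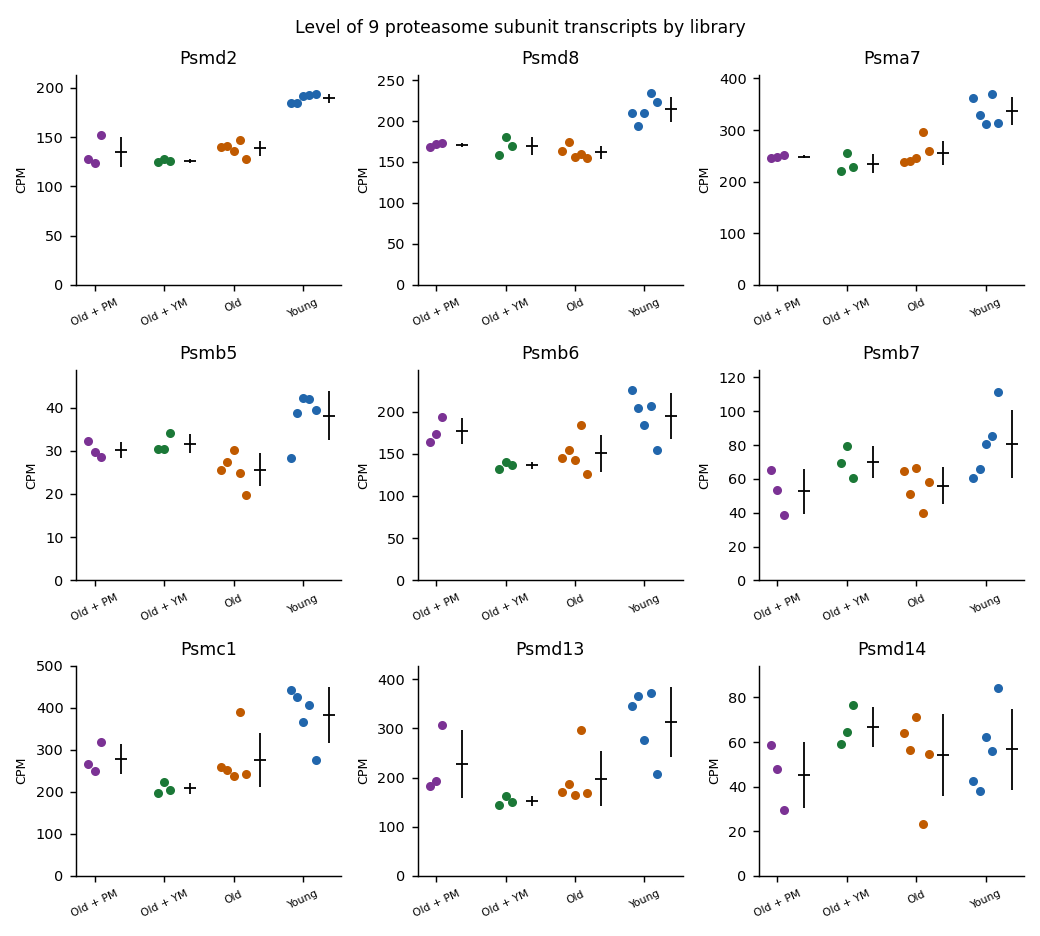
CPM of 9 members in each library of the 4 groups, with points for libraries and the mean with 1 SD to their right. Old lies under Young without overlap for Psmd2, Psmd8 and Psma7, while Old 4 (391 CPM of Psmc1, 296 CPM of Psmd13, 23.4 CPM of Psmd14) and Young 5 (275, 207 and 84.3 CPM of the same genes) lie apart from their groups.

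Leaving libraries out moved the count of members called. Without Old 4, Old + PM 3 and Young 5 together, a choice made after seeing the data, 22 members fell and Psmb2 rose, against 13.4% and 12.7% of all genes. Psmb2 then stood at 0.48 (edgeR adjusted p = 0.00891). Without 1 library at a time, between 9 and 20 members fell, while the share of all genes that fell ran from 4.07% without Young 4 (9 members) to 9.54% without Old 4 (20 members). Omitting Old 5, Young 2 or Young 4 left 9 members, omitting Old 2 or Young 1 left 10, and omitting Old 1 or Young 3 left 11. The members' median stayed between -0.40 and -0.31. With upper quartile scaling 13 fell and none rose, against 5.17% and 7.53% of all genes. With only Old and Young in the fit, 10 fell, against 5.32% of genes. With the clock score as a covariate only Psmb7 and Psmd5 fell, none of the 17 was called, and the median was -0.24, with 1.66% of all genes lower. The clock score separates Young from all aged libraries but Old 4, so age and the phase of the clock cannot be told apart. Macrophage markers rose in 9 of 12 genes and summed to 205 to 1203 CPM in Old, the highest in Old 5, against 177 to 223 CPM in Young. B and plasma cell markers rose in 4 of 6 tested genes and summed to 122 to 196 CPM in Old, against 6.15 to 18.2 CPM in Young. Over all genes 6.47% rose. T and NK cell markers rose in 2 of 6 tested genes, fibroblast and mesangial markers in 2 of 6 and podocyte markers in 1 of 5. Proximal tubule markers rose in 2 of 12 and fell in 2, and loop and distal tubule markers rose in 1 of 7 and fell in 2. Endothelial markers rose in 1 of 6 and fell in 1, and 0 of 7 collecting duct markers passed. The summed member level of Old 5 was 3947 CPM, the lowest among Old and Young, and that of Old + YM 1 was 3899.7 CPM. The part of these cells in the lower member levels was not tested.

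Within groups, the members did not move as one. After each library was set against its own group mean, 56.9% of the members' variance lay on 1 shared axis. Old 4 scored 9.78 on it, Old + PM 3 scored 6.13 and Young 5 scored -7.96. The other libraries lay between -4.37 and 4.81. On that axis 18 members correlated above 0.5 over the 16 libraries, led by Psmc5, Psmd13, Psmd4 and Psmc1. Another 10 correlated under -0.5: Psmb2, Psmd14, Psma5, Psmb7, Psma3, Psma1, Psmd5, Psmc2, Psmd11 and Psmd1. The last 6, Psma2, Psmc6, Psmd9, Psmd8, Psmb5 and Psmd12, lay between. In Old 4, Psmd13 was at 296 CPM and Psmd14 at 23.4 CPM, while the other Old libraries held 164 to 187 CPM of Psmd13 and 54.8 to 71.4 CPM of Psmd14. So a library high in the first set was low in the second.

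**Figure D4:**
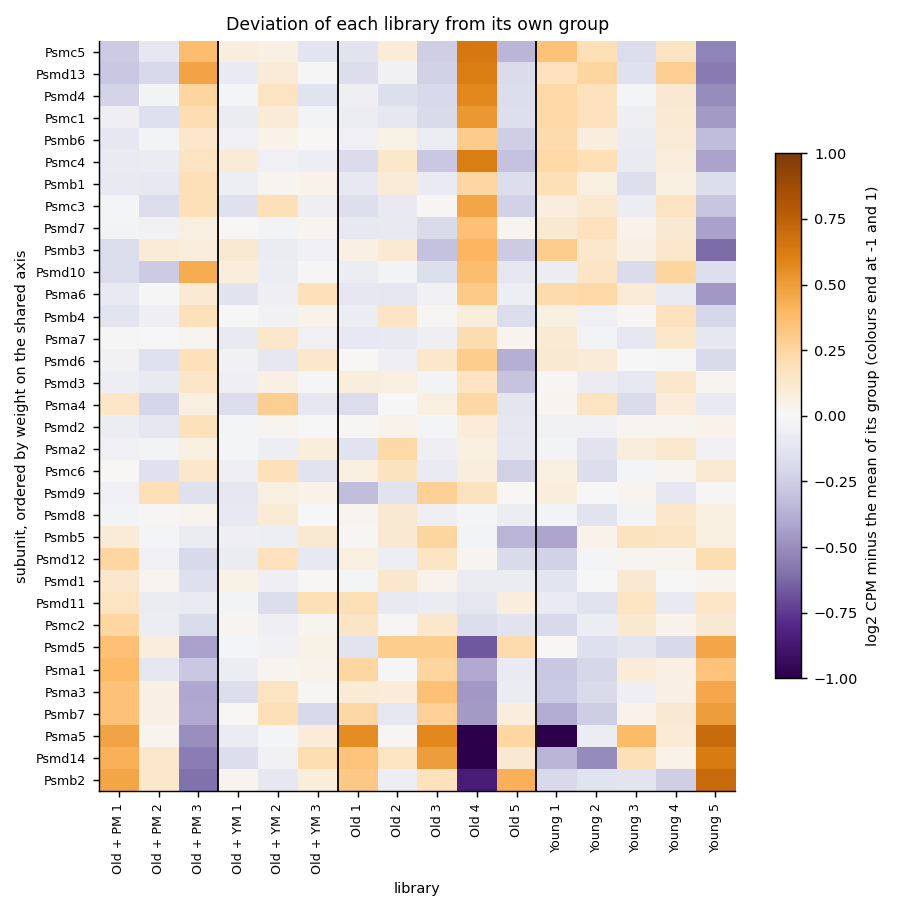
Deviation of each library's log2 CPM from the mean of its own group, for the 34 members ordered by their weight on the shared axis, with libraries in columns and black lines between groups. Old 4 and Old + PM 3 are high for the upper rows and low for the bottom rows, and Young 5 shows the opposite.

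Of the 561 pairs of members, 31.7% correlated above 0.5 and 23.4% under -0.5 within groups, beside 8.51% and 8.28% of all gene pairs. The axis's library scores followed the first component of all genes above 20 CPM, which held 36.3% of their within-group variance (Pearson r = 0.99, Spearman rho = 0.97, n = 16 libraries, and r = 0.99 without Old 4 and Young 5). Of the 5990 genes in that component, 33 are members. Across the 34 members, the axis weight correlated with mean log2 CPM at r = 0.65, with the GC content of the transcript at r = 0.36 and with the Old over Young log2 fold change at r = -0.59. These describe 34 genes that share the same libraries. In the set above 0.5, 12 of 18 members fell in Old, in the set between 3 of 6, and in the set under -0.5 2 of 10. Over all 34 members it was 17, and over all tested genes 7.13%.

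The all-gene component as a covariate, chosen after seeing the data, left 25 members lower in Old than in Young, all 17 among them, against 12.5% of all genes. The additional members were Psma6, Psmb3, Psmb4, Psmb7, Psmc4, Psmc5, Psmd10 and Psmd12. Psmb7 then stood at -0.52 (edgeR adjusted p = 9.49e-05). The component was computed from the deviations within these groups, so removing it lowers the residual spread by construction.

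In the edgeR fit without covariates, no member passed an adjusted p of 0.05 under either formula. In Old + PM against Old, 0 members passed in either direction in edgeR, where 0% of all genes were lower and 0% higher, and DESeq2 gave 0 as well. At an unadjusted p of 0.05 no member was lower or higher, against 3.52% and 2.65% of all genes. Without Old 4, 1 member was lower and 7 were higher at that level, against 4.13% and 6.07% of all genes. It was 2 lower without Old + PM 1, against 4.2% of all genes, and 1 higher without Young 5, against 3.36%. The members' median log2 fold change was -0.01 (range -0.32 to 0.28). Psmb5 had 32.2, 29.6 and 28.6 CPM in Old + PM, all within or just above the Old range, at 0.24 (SE 0.15, edgeR adjusted p = 0.843). Its 95% interval was -0.05 to 0.53. Psmd2 had 128, 124 and 152 CPM in Old + PM, around the Old libraries and under the Young ones.

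Psmb6, Psmb7, Psmd4 and Psmd14 also overlapped Old under PM. Psmb6 had 164, 173 and 194 CPM and Psmb7 65.4, 53.6 and 38.9 CPM in Old + PM, at log2 fold changes of 0.23 and -0.09 over Old. Psmd4 had 175, 201 and 244 CPM and Psmd14 58.7, 47.8 and 29.6 CPM, at 0.06 and -0.25. In Old + PM 3, as in Old 4, Psmd4 was high and Psmd14 and Psmb7 were low.

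In Old + YM against Old, 0 members passed in edgeR and 0 in DESeq2, and over all genes 0% were lower and 0.0205% higher in edgeR. At an unadjusted p of 0.05, 5 members were lower (Psmc1, Psmc3, Psmd4, Psmd6 and Psmd7), against 4.9% of all genes. Psmd5 and Psmb5 were higher at that level, against 4.58% of all genes. Without Old 4, 0 members were lower and 1 was higher, against 2.83% and 3.97% of all genes. The lower count was also 0 without Old + YM 1 and 1 when Old + YM 3 or Young 3 was left out. It was 2 when Young 1, Young 2 or Young 4 was, and 3 when Old + YM 2, Old + PM 2 or Old 2 was. Without Old + PM 3 it was 4, and without Old 3, Young 5 or Old + PM 1 it stayed at 5. Without Old 1 or Old 5 it was 6. Over all genes the share lower at that level ran from 2.79% without Old + YM 3 to 5.05% without Old 1. In 5 members every Old + YM library lay under every Old one, against 3.95% of genes, and in 3 every one lay above, against 5.15%. The members' median was -0.05 (range -0.41 to 0.56). Psmd5 had 30.9, 30.5 and 32.4 CPM in Old + YM, against 19.2, 25.8, 25.9, 13.3 and 24.6 CPM in Old. All Old + YM libraries were above Old, at 0.53 (SE 0.21, edgeR adjusted p = 0.45). Psmc1 had 198, 222 and 204 CPM in Old + YM, all under Old, at -0.41 (SE 0.17, edgeR adjusted p = 0.456). These comparisons share the Old libraries with the comparison of Old and Young.

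Among the catalytic genes, Psmb5 had 30.4, 30.3 and 34.2 CPM in Old + YM, all above the Old range, at 0.31 (SE 0.15, edgeR adjusted p = 0.525). Psmb6 had 132, 141 and 137 CPM and Psmb7 69.5, 79.4 and 60.5 CPM in Old + YM, both overlapping Old, at -0.14 and 0.32. Psmd4 had 148, 167 and 136 CPM in Old + YM, all under Old, at -0.40 (SE 0.18, edgeR adjusted p = 0.513). Psmd14 had 59.0, 64.7 and 76.8 CPM in Old + YM and overlapped Old, at 0.31.

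Between the formulas, 0 members passed in Old + PM against Old + YM in edgeR and 0 in DESeq2, and 0% of all genes passed in either direction in edgeR. At an unadjusted p of 0.05, 3 members were lower (Psma1, Psmd5 and Psmd11), against 6.75% of all genes, and 10 were higher, against 6.06%. Without Old + PM 3, 2 members were lower and 1 was higher at that level, against 3.75% and 2.15% of all genes. The higher count was 3 without Old + YM 1, 7 without Old + YM 2 and 4 without Old + YM 3, against 4.03%, 3.69% and 4.67%. It was 11 without Old 4, against 6.78% of all genes. The lower count was 7 without Old + PM 1, 5 without Young 5 and 4 without Old 4, against 9.45%, 8.09% and 8.06%. In 6 members every Old + PM library lay under every Old + YM one, and in 11 every one lay above. Over all 14665 tested genes these counts were 1748 and 1744. Psmb3 had 176, 214 and 211 CPM in Old + PM, against 139, 122 and 125 CPM in Old + YM. The groups did not overlap, at 0.64 (SE 0.19, edgeR adjusted p = 0.258). Psmd5 had 22.6, 18.6 and 13.0 CPM in Old + PM, against 30.9, 30.5 and 32.4 CPM in Old + YM. It did not overlap either, at -0.79 (SE 0.24, edgeR adjusted p = 0.258). Psmd11 had 62.4, 53.1 and 52.8 CPM in Old + PM, against 70.1, 63.7 and 81.9 CPM in Old + YM. All Old + PM libraries were lower, at -0.36 (SE 0.13, edgeR adjusted p = 0.303).

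**Figure D5:**
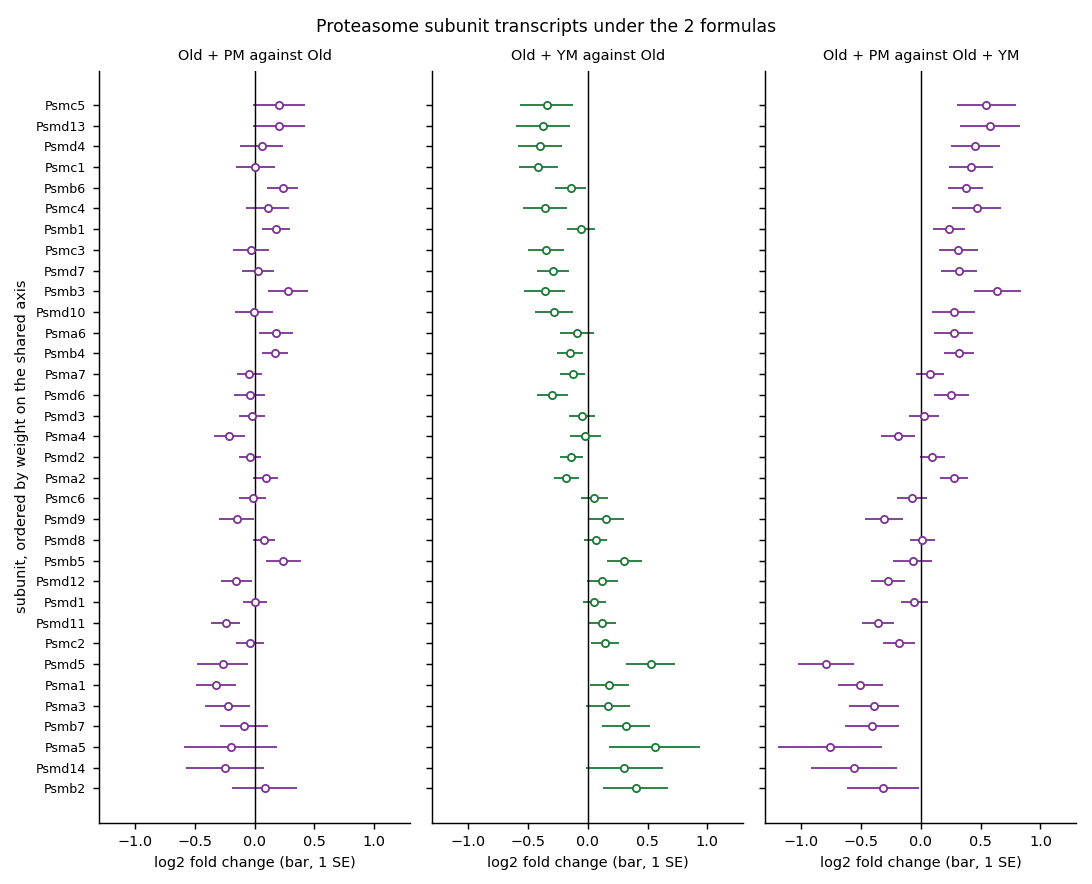
log2 fold change of the 34 members with 1 SE (edgeR) in Old + PM over Old, Old + YM over Old and Old + PM over Old + YM, ordered by weight on the shared axis. No point passed an adjusted p of 0.05 in this fit. In Old + YM over Old the 18 upper members have a median of -0.28 and the 10 lowest 0.24, against 0.05 and -0.21 in Old + PM over Old.

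The estimates in Old + YM against Old split by side of the axis, while those in Old + PM against Old overlapped. In Old + YM against Old, the 18 members above 0.5 ran from -0.41 to -0.02 (median -0.28) and the 10 under -0.5 from 0.06 to 0.56 (median 0.24). The Old mean holds Old 4, which scored 9.78 on the axis. For Old + PM against Old, the 18 members ran from -0.21 to 0.28 (median 0.05) and the 10 from -0.32 to 0.08 (median -0.21). In Old + PM against Old + YM the medians of these sets were 0.32 and -0.40. With the all-gene component as a covariate, 7 members fell in Old + YM against Old (Psmb3, Psmc1, Psmc3, Psmc4, Psmc5, Psmd4 and Psmd13) and 5 rose (Psma5, Psmb2, Psmb7, Psmd5 and Psmd14), against 1.62% and 4.42% of all genes. In Old + PM against Old + YM, 7 fell (Psma1, Psma3, Psma5, Psmb7, Psmd5, Psmd11 and Psmd14), against 6.92%. Another 9 rose (Psmb3, Psmb4, Psmb6, Psmc1, Psmc4, Psmc5, Psmd4, Psmd7 and Psmd13), against 3.54%. In Old + PM against Old it was 0 in both directions, against 0.0682% and 0.0273%. Here too the covariate lowers the residual spread by construction, so these calls rest on smaller errors. In Old + YM against Old the members' median SE was 0.097 with it and 0.143 without it. Their median log2 fold change was -0.048 with it and -0.053 without it. Without Old 4, Old + PM 3 and Young 5 together no member passed in any comparison of the treated groups. All genes then stood at 0.0463% lower and 0.318% higher in Old + YM against Old, 0% in both directions in Old + PM against Old, and 0.119% lower and 0% higher in Old + PM against Old + YM.

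Genes that work with the proteasome were read from 7 lists. Of their 45 tested genes, 10 fell and 1 rose in Old against Young, beside 7.13% and 6.47% of all genes. By list, 1 of 6 activators and inhibitor, 1 of 5 assembly factors, 5 of 10 receptors and deubiquitinases of the regulatory particle, 2 of 6 polyubiquitin and E1 genes and 1 of 7 genes of the VCP segregase fell. Most of the others did not pass in either direction, among them the assembly factor Psmg4 at 0.37 (edgeR adjusted p = 0.0625), the activator Psme2 at 0.45 and the shuttle Ubqln2 at 0.23. Among shuttle proteins that carry ubiquitin chains to the complex, those that fell included Ubqln1 at -0.53 (SE 0.09, edgeR adjusted p = 0.000936), Rad23b at -0.51 and Ubqln4 at -0.57. Adrm1, a ubiquitin receptor of the regulatory particle, had 27.0, 34.5, 33.4, 29.3 and 27.3 CPM in Old, against 37.8, 38.9, 39.4, 38.4 and 39.8 CPM in Young. No libraries overlapped, at -0.36 (SE 0.10, edgeR adjusted p = 0.0252). The polyubiquitin gene Ubb (-0.50) fell, as did Vcp (-0.41), the segregase that pulls proteins out of complexes. Pomp, the maturation factor of the core (-0.46), and Psme4, an activator cap (-0.44), fell too.

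Nfe2l2, a transcription factor of the antioxidant response, was the 1 gene that rose. It had 137, 139, 129, 136 and 145 CPM in Old, against 116, 111, 102, 118 and 117 CPM in Young. All Old libraries were above all Young ones, at 0.28 (SE 0.08, edgeR adjusted p = 0.0239). Nfe2l1 stood at -0.02 (edgeR adjusted p = 0.934).

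The inducible catalytic subunits, which replace the constitutive ones in immune cells, did not pass. Psmb8, the counterpart of Psmb5, had 21.5, 17.3, 15.1, 12.7 and 79.0 CPM in Old, against 7.03, 8.64, 14.6, 11.2 and 12.4 CPM in Young. Old 5, the library with the highest macrophage marker sum, was far above the rest, and the log2 fold change was 1.44 (SE 0.54, edgeR adjusted p = 0.0968). Psmb9, the counterpart of Psmb6, stood at 1.55 and Psmb10, that of Psmb7, at 0.58. No gene of the 7 lists passed in the comparisons of the formulas.

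The non-members whose level within groups was most like the mean of the 34 members were named among 6025 genes of at least 20 CPM. They were led by Ndufb2, a subunit of mitochondrial complex I (r = 0.92), Hsd17b10, Tmem14c, Kif1c and Mettl16. Cox6c and Uqcrq, subunits of complexes IV and III, the iron-sulfur factor Ciapin1, the shuttle Rad23b and Eps8, Ndufaf8, Pafah2, Micos13, Hspe1 and Samd9l completed the 15, down to r = 0.85. Ndufb2 stood at -0.53 in Old against Young and Hsd17b10 at -0.18. Group means were removed before these correlations, so the likeness covers differences within the groups only, over the same 16 libraries.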

How the data were processed

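The deposited files hold raw whole-number counts per gene symbol made by the authors. Per the submitters' processing notes, Bowtie2, bedtools and the mm10 build were used. No source used here gives their versions, the annotation or the strand setting. Counts of 16 libraries, grouped by the labels, entered 1 edgeR 4.0.16 quasi-likelihood fit in R 4.3.3 (TMM scaling, robust, filterByExpr minimum count 10), which tested 14665 genes in 4 comparisons, two-sided. DESeq2 1.42.0, limma-voom (limma 3.58.1), other scalings, no filter, covariates, a replicate term and left-out libraries were alternatives. Members, lists and alternatives were chosen with earlier results of these data known. All 34 members are accounted for, and the 12 members with the smallest p in Old against Young, the catalytic genes, Psmd4, Psmd11, Psmd14 and the members of lowest and highest mean level are given by library. Psmb3, Psmc1, Psmc2, Psmd5, Psmb8, Adrm1 and Nfe2l2 were given by library after their values were seen. Overlaps with the last 500 bases of the transcript and near copies of the last 300 bases (at least 95% identity) came from GENCODE M21 on GRCm38. The fit was tested on simulated data. Counts at the lowest total, 8223008, limit members of low CPM. Some genes of the lists that passed are not reported here by name.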

Additional observations from a re-analysis of the deposited data

Results flagged for a closer look

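In groups of 5 libraries, 1 library was tested for lying apart from the other 4 by Dixon's ratio at the 95% level, in the 34 members and both groups of 5. Of 68 such groups 9 were flagged, and chance flags about 1 in 20. Old 4 was high in 5 of them: 391 CPM of Psmc1 (others 238 to 259.9), 288 CPM of Psmd4 (others 169 to 187), 296 CPM of Psmd13 (others 164 to 187), 106 CPM of Psma6 (others 79.1 to 83.5) and 62.1 CPM of Psmd10 (others 43.0 to 47.2). Young 5 stood apart in 3: it was high with 34.2 CPM of Psmb2 (others 17.7 to 19.1) and 35.0 CPM of Psmd5 (others 22.1 to 25.4) and low with 139.7 CPM of Psmd7 (others 193 to 213). Young 1 was low with 28.3 CPM of Psmb5 (others 38.7 to 42.3). Because the members of a library share its RNA, these flags are not independent of each other.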

How the results depend on the processing

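In Old against Young the members' median log2 fold change was negative under every alternative run, and no member that passed in Old against Young changed sign in any of them except Psmc1, at 0.024 with the clock score. Beside the 17 members lower in Old, with 7.13% of all genes lower, each alternative gave its own count and share. DESeq2 gave 18 (8.5% of all genes), limma-voom 16 (7.27%), upper quartile scaling 13 (5.17%, median -0.31) and no low-count filter 15 (3.55%). Only the 2 groups compared gave 10 (5.32%) and the replicate block 16 (8.05%). The mitochondrial share gave 17 (6.55%), 16 of them among the first 17. The clock score gave 2 (1.66%, median -0.24), 0 of them among the first 17. The all-gene component gave 25 (12.5%). The 2 settings added after seeing the data were that component and the fit without Young 5, Old 4 and Old + PM 3. The component gave 7 lower and 5 higher in Old + YM against Old (1.62% and 4.42% of all genes). In Old + PM against Old + YM it gave 7 lower and 9 higher (6.92% and 3.54%). It lowers the residual spread by construction. The fit without the 3 libraries gave 1 member higher in Old than in Young (12.7% of all genes). Leaving out 1 library gave 9 to 20 lower members, with 4.07% to 9.54% of all genes lower, and medians of -0.40 to -0.31 in Old against Young, -0.088 to 0.032 in Old + YM against Old, -0.035 to 0.059 in Old + PM against Old and 0.0015 to 0.084 in Old + PM against Old + YM. The last median was 0.11 with the mitochondrial share and 0.010 without the 3 libraries. Psmd14 turned to 0.020 with the mitochondrial share and 0.31 without the 3 libraries. It ran from -0.20 to 0.14 as 1 library was left out, above 0 without Young 5 (0.14) or Old 4 (0.13). With the clock score Psmd14 stood at -1.05 (SE 0.39, edgeR adjusted p = 0.172), the lowest of its values. The cause was not tested. Replicate numbers are not said to pair the libraries. In the pairing check, same-numbered libraries of 2 groups correlated at -0.63 to 0.39, over 0.1 in 5 of 20 pairs. No values of different-numbered pairs are given beside these, so the check cannot settle the pairing. The replicate block gave 16 lower members. Groups of 3 and 5 libraries and a lowest member count of 56 limit what could be detected.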
